A study of Mus musculus with 18 samples.

Results

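The antiviral genes that interferon switches on were followed in the lungs of mice with an allergic airway response, with and without a drug that acts on a viral RNA sensor. The set was a list of 40 interferon-stimulated genes chosen by name, and each gene was read by the Affymetrix probe set (a group of short probes for 1 transcript) that was annotated to that gene alone and had the highest mean over all arrays. Such a probe set existed for 37 of the 40 genes, among 18193 genes on the array. Isg15 was read only by a probe set shared with other genes, and Oas1g and Ifi44 were not matched to a probe set, so these 3 have no values here.

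Lungs were taken from 18 males at 16 weeks of age, of the A/J strain in 9 cases and of C57BL/6 in the other 9. The whole lung of each gave 1 array, and 3 mice made up each of 6 groups. Every mouse had been sensitized to ovalbumin with 3 weekly intraperitoneal injections of 100 µg in 37.5 µL of alum, so the control mice were sensitized too. From 7 days after the last injection the mice breathed an aerosol for 30 min on 3 consecutive days, which was either PBS or 1% ovalbumin. In each strain 1 of the ovalbumin groups also received 100 µg of resiquimod (S-28463, R-848) intraperitoneally on 3 days, 24 h ahead of the challenges, and is called the resiquimod group below. No group received resiquimod without ovalbumin, so its effect was measured only on top of the allergic challenge, against ovalbumin alone. The sample labels do not give the time between the last challenge and collection of the lungs.

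Interferons are secreted proteins that bind receptors on neighbouring cells. Kinases on the receptors start a signal that ends at the interferon-stimulated response element (ISRE) in front of many genes. Those genes encode proteins that bind, edit or degrade viral RNA, starve the virus of nucleotides or hold it at the membrane, and many of them are made at a low level in healthy lung. Resiquimod is a small synthetic agonist of TLR7, the endosomal receptor for single-stranded RNA, through which plasmacytoid dendritic cells release type I interferon.

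The ISRE can be read in the stretch of DNA ahead of several of these genes. RefSeq promoter windows on mouse build GRCm38.p6, running from 250 bases before to 50 bases after a gene's start, were found for 29 of the 40 genes. The ISRE core was searched on both strands as GAAA, any 2 bases and GAAA again. At least 1 match was found for 14 of the 29 genes, in 15 of their 33 windows, against 3.44% of all 32851 windows. The only matches of Ifih1 and Eif2ak2 lie after the gene's start. A longer form has CT added at the 3′ end, and each of its matches also counts as a core match. It was found for 7 of the 29 genes (8 of 33 windows) and in 0.271% of all windows. The interferon-gamma activated sequence, searched as TTCNNNGAA (the same on both strands), was found for 8 of the 29 (8 of 33 windows) and in 8.3% of all windows. The 250 bases before the start are printed here, 5′ to 3′ in the gene's direction, for the genes whose values the results turn on: Ifit3, Oas1a, Bst2 and Rsad2, which carry core matches, and Epsti1 and Lgals3bp, which have none in this window. Capitals mark the matches, including the 2 added bases where the longer form was matched.
Ifit3 (chr19:34583279-34583528, plus strand): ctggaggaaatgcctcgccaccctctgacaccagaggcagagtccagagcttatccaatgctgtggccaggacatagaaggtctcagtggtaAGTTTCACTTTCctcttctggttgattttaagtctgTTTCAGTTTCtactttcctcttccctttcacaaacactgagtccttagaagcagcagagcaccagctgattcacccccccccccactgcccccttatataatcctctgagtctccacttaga
Oas1a (chr5:120907526-120907775, minus strand): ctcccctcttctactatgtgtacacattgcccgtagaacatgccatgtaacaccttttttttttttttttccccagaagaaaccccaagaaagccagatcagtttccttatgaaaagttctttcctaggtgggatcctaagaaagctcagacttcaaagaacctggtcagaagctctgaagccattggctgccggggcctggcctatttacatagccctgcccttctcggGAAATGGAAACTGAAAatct
Bst2 (chr8:71537473-71537722, minus strand): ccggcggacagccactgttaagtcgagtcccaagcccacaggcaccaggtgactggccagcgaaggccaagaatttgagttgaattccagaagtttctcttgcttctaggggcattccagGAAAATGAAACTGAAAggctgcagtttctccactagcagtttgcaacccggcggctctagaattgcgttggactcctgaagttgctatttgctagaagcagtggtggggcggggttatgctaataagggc
Rsad2 (chr12:26456453-26456702, minus strand): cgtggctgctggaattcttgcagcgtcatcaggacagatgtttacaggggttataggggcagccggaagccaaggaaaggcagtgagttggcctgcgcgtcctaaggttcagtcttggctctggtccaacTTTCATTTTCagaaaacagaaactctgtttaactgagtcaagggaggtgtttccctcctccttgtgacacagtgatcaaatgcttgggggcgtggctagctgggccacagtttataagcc
Epsti1 (chr14:77903989-77904238, plus strand): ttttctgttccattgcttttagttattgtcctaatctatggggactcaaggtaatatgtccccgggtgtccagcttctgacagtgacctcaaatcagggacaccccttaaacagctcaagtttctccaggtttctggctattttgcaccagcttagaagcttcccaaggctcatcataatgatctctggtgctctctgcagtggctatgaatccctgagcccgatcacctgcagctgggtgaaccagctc
Lgals3bp (chr11:118401960-118402209, minus strand): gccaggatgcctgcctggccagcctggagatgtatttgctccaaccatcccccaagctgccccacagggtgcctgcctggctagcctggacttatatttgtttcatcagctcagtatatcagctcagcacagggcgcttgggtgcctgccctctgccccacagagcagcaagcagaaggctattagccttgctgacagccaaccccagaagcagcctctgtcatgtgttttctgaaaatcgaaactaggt
The absence of these letters from a window says only that they are not in those 300 bases.

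Some facts of the whole series bear on these genes. Values are on a log2 scale, their median over all probe sets and arrays was 4.79, and a signal near the lower quartile of 3.33 is close to background. Lung identity was plain in every array, with the alveolar type 2 cell gene Sftpc between 13.72 and 13.86. In 8 arrays, spread over all 6 groups, transcripts of squamous epithelium were high (a mean of 6.54 to 7.72 over 14 marker genes, against 3.70 to 4.20 in the other 10 arrays); they are replicate 1 of the PBS, ovalbumin and resiquimod groups and replicate 3 of the ovalbumin group in A/J, and replicates 1 and 3 of the PBS group, 1 of the ovalbumin group and 2 of the resiquimod group in C57BL/6. Counts are given below with and without these arrays, where the A/J ovalbumin and C57BL/6 PBS groups are each reduced to 1 array. The 3 C57BL/6 PBS arrays also differed from the 6 other C57BL/6 arrays in Nnt, a mitochondrial gene that is partly deleted in the C57BL/6J substrain (6.90 to 7.27 against 8.27 to 8.45), and in Wdfy1 (6.12 to 6.47 against 7.30 to 7.50). In every comparison that uses the C57BL/6 PBS mice, treatment and a possible substrain difference therefore cannot be told apart. Comparisons of resiquimod with ovalbumin within C57BL/6 do not take their means from those arrays. In whole-lung RNA, fewer cells of a kind and less RNA per cell cannot be told apart.

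As a group the 37 genes moved little at the time of collection, and they did not move as 1 block. In C57BL/6 lungs their mean over all 37 was 7.30 ± 0.05 (SD, n = 3) after PBS, 7.55 ± 0.15 after ovalbumin and 7.70 ± 0.03 after resiquimod. The corresponding means in A/J lungs were 7.24 ± 0.06, 7.28 ± 0.02 and 7.32 ± 0.10. In C57BL/6 the 3 PBS arrays (7.25, 7.35 and 7.29) lay below the ovalbumin arrays (7.50, 7.43 and 7.72), and the resiquimod arrays (7.71, 7.67 and 7.72) overlapped the latter at their top. In A/J all 3 groups overlapped. After ovalbumin 35 of the 37 genes were above their PBS mean in C57BL/6 and 21 of 37 in A/J, against 51.8% and 48.6% of all genes, and the median change of the 37 was 0.23 and 0.03. After resiquimod, relative to ovalbumin, 27 of 37 were above 0 in C57BL/6 and 19 in A/J (44.4% and 49.2% of all genes), with medians of 0.09 and 0.05.

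Few of these shifts passed the test for a single gene. A gene is called changed where limma's moderated test gave a Benjamini-Hochberg adjusted p under 0.05 over all probe sets. Changes are log2 differences ± the standard error of the limma fit. After ovalbumin 1 of the 37 genes was higher and 1 lower in A/J, where 4.38% of all genes were called (3.2% higher and 1.18% lower). In C57BL/6, 3 were higher and 0 lower, where 1.59% of all genes were called (1.44% and 0.154%). There 18 members, all higher, had an unadjusted p under 0.05. The share of all genes at that threshold was not counted, here or below. After resiquimod, against ovalbumin, 5 were higher and 1 lower in A/J (9.77% of all genes called, 4.38% and 5.39%), and 6 were higher and 1 lower in C57BL/6 (10.4% called, 5.8% and 4.6%). The groups of 3 arrays did not overlap for 9 and 19 of the 37 after ovalbumin (24% and 17.8% of all genes) and for 14 in either strain after resiquimod (25.7% and 30.6%), A/J first. Without the 8 arrays with squamous transcripts the counts of called genes were 0 and 0 for ovalbumin and 1 (Rsad2) and 4 (Samhd1, Bst2, Lgals3bp and Epsti1) for resiquimod, A/J first, and no called gene changed direction. Over all 4 comparisons 25 of the 37 genes were called in none.

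**Figure D1:**
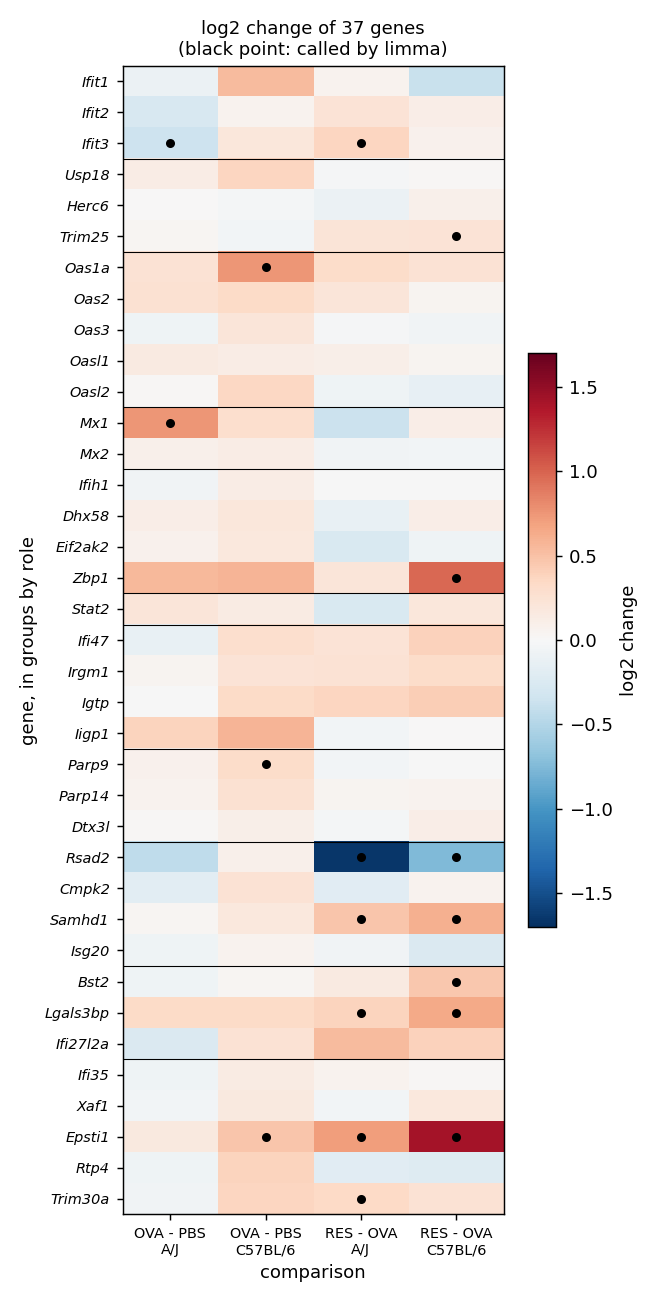
Log2 change of the 37 genes (rows, in groups by role) in 4 comparisons (columns): ovalbumin minus PBS (OVA - PBS) and resiquimod with ovalbumin minus ovalbumin (RES - OVA) in each strain, n = 3 arrays a group. Red is higher, blue lower, and a black point marks a gene called by limma; Epsti1 is the deepest red (1.42 in C57BL/6), Rsad2 the deepest blue (-1.66 in A/J), and 25 genes carry no point.

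The IFIT genes lie on chromosome 19, where Ifit2 and Ifit3 are next to each other among protein-coding genes. IFIT proteins bind viral RNA ends that lack the host's cap methylation. In A/J, Ifit3 fell after ovalbumin and stood higher again after resiquimod. Its values in A/J were 8.66, 8.73 and 8.84 after PBS, 8.33, 8.44 and 8.39 after ovalbumin, and 8.75, 8.76 and 8.75 after resiquimod. All 3 ovalbumin arrays lay below every other array of the strain, and the resiquimod arrays fell inside the PBS range. The change was -0.36 ± 0.09 for ovalbumin against PBS (adjusted p = 0.0295), and 0.37 ± 0.09 for resiquimod against ovalbumin (adjusted p = 0.0133), both of which rest on the same 3 ovalbumin arrays. In C57BL/6 Ifit3 read 8.87, 9.01 and 8.96 after PBS, 9.04, 8.99 and 9.36 after ovalbumin, and 9.25, 9.14 and 9.21 after resiquimod, with overlap between PBS and ovalbumin and no call. The fall in A/J was lost without PBS replicate 2 (adjusted p = 0.0808) or 3 (0.136) or ovalbumin replicate 1 (0.112) or 3 (0.0933), and the rise without ovalbumin replicate 1 (0.0554). Ifit2 had the same order of group values in A/J, at 7.50, 7.66 and 7.69 after PBS, 7.37, 7.32 and 7.33 after ovalbumin, and 7.59, 7.61 and 7.53 after resiquimod, but neither step was called (-0.28 and 0.24). For Ifit1 the step after ovalbumin in C57BL/6 was 0.54 ± 0.15 (adjusted p = 0.108) and that after resiquimod -0.38 ± 0.15 (0.143), against -0.10 and 0.06 in A/J, none of them called.

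The 2′-5′ oligoadenylate synthetases sense double-stranded RNA and make the small messenger that activates RNase L, a nuclease. Of the 5 measured, Oas1a was called. In C57BL/6 it read 6.60, 6.51 and 6.79 after PBS, 7.24, 7.36 and 7.54 after ovalbumin, and 7.72, 7.57 and 7.61 after resiquimod, so each treatment stood above the one before with no overlap. It rose by 0.75 ± 0.12 after ovalbumin (1.68-fold, adjusted p = 0.00238), a value that was 0.94 without the arrays with squamous transcripts, where it was no longer called (0.0786). The A/J arrays stood in the same order, with values of 6.37, 6.72 and 6.74 after PBS, 6.82, 6.78 and 6.97 after ovalbumin, and 7.14, 7.37 and 6.99 after resiquimod. There the ovalbumin step was 0.25 ± 0.12 (adjusted p = 0.338) and the resiquimod step 0.31 ± 0.12 (0.138), neither called alone, while resiquimod against PBS was (0.56 ± 0.12, adjusted p = 0.00605). The other synthetases gave ovalbumin steps in C57BL/6 of 0.32 (Oas2), 0.21 (Oas3), 0.13 (Oasl1) and 0.36 (Oasl2), none of them called, and resiquimod steps between -0.14 and 0.05. Oas3 and Oasl1 have means under the median of all values, so a change there may be understated.

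Mx1 and Mx2 are dynamin-like GTPases that trap viral nucleocapsids, and the Mx1 gene of most inbred laboratory mice carries a disabling deletion. Mx1 rose after ovalbumin in A/J. In that strain it read 4.07, 3.73 and 3.98 after PBS, 4.90, 4.50 and 4.63 after ovalbumin, and 4.48, 4.36 and 4.11 after resiquimod. Every ovalbumin array lay above every other A/J array. The rise was 0.75 ± 0.13 (1.68-fold; adjusted p = 0.00251), and 0.65 and not called without the arrays with squamous transcripts (0.376). The resiquimod step was -0.36 ± 0.13 and was not called (adjusted p = 0.107). C57BL/6 values ran 4.06, 4.19 and 4.04 after PBS, 4.25, 4.30 and 4.58 after ovalbumin, and 4.35, 4.47 and 4.64 after resiquimod, an ovalbumin step of 0.28 ± 0.13 (adjusted p = 0.439), and the difference between the strains' steps was not called (0.47 ± 0.18, adjusted p = 0.83). Mx2 stayed between 4.33 and 4.77 in all 18 arrays, with no call.

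Of the genes that attach or remove the ubiquitin-like protein ISG15, only Trim25 was called in the 4 comparisons. Trim25, a ubiquitin ligase that activates the RNA sensor RIG-I, rose after resiquimod in C57BL/6. It read 8.97, 8.92 and 8.92 after PBS, 8.83, 8.81 and 9.01 after ovalbumin, and 9.11, 9.09 and 9.15 after resiquimod there and 8.89, 9.02 and 8.94 after PBS, 8.98, 9.00 and 9.00 after ovalbumin, and 9.11, 9.25 and 9.26 after resiquimod in A/J. Both strains had all 3 resiquimod arrays above all 3 ovalbumin arrays. The steps were 0.23 ± 0.07 in C57BL/6 (adjusted p = 0.0392) and 0.22 ± 0.07 in A/J (0.0584). With 1 array left out at a time, 7 of 18 fits no longer called it in C57BL/6 (adjusted p up to 0.145): those without A/J PBS 3, C57BL/6 PBS 3, ovalbumin 1 and 2, and resiquimod 1, 2 and 3. Usp18, the protease that strips ISG15 from its targets and damps receptor signalling, was not called after ovalbumin or after resiquimod against it. Herc6, the mouse ligase for ISG15, gave a step of 0.09 ± 0.07 after resiquimod in C57BL/6 by its brightest probe set, whereas the next in brightness was called higher there (0.51, adjusted p = 0.00317), so the probe sets of this gene disagree.

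Among the sensors of foreign nucleic acid, Zbp1 was called and the 3 others were not. ZBP1 binds left-handed (Z-form) RNA and DNA and starts necroptosis. In C57BL/6 it read 5.01, 5.31 and 5.39 after PBS, 5.78, 5.63 and 6.03 after ovalbumin, and 6.81, 6.67 and 6.88 after resiquimod. The resiquimod arrays lay above all 6 others, and the step over ovalbumin was 0.97 ± 0.20 (1.96-fold, adjusted p = 0.00629). Without the arrays with squamous transcripts it was 1.01 and not called (0.127). A/J arrays read 5.21, 4.77 and 5.32 after PBS, 5.75, 5.49 and 5.72 after ovalbumin, and 6.12, 6.21 and 5.24 after resiquimod, where resiquimod replicate 3 lay with the PBS arrays and the other two above every ovalbumin array. The A/J step of 0.21 ± 0.20 was not called (adjusted p = 0.656), and the strain difference in the step, -0.77 ± 0.29, was not called either (0.252). Ifih1 (MDA5), which senses long double-stranded RNA, changed by 0.00 and 0.00 after resiquimod. Its modulator Dhx58 (LGP2) and the RNA-activated kinase Eif2ak2 (PKR) gave steps between -0.26 and 0.12, none called. Stat2, the signalling subunit that carries the interferon signal to the nucleus, gave -0.25 ± 0.15 in A/J and 0.19 ± 0.15 in C57BL/6, also without a call.

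The immunity-related GTPases Irgm1, Igtp, Ifi47 and Iigp1 belong to a family that takes part in defence against intracellular parasites and responds mainly to interferon gamma. None was called after ovalbumin or after resiquimod relative to ovalbumin in either strain. In C57BL/6 the resiquimod steps were 0.31 ± 0.10 for Irgm1 (adjusted p = 0.0585), 0.42 ± 0.20 for Igtp and 0.40 ± 0.15 for Ifi47, and 0.01 for Iigp1. All 3 resiquimod arrays lay above all 3 ovalbumin arrays for the first 3 of these and not for Iigp1. Measured against PBS instead, Irgm1, Igtp and Ifi47 were called higher in C57BL/6 (0.54, 0.75 and 0.67). The Igtp call was lost without PBS replicate 1 (adjusted p = 0.0932) or 3 (0.0861) or resiquimod replicate 1 (0.0503) or 3 (0.068).

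Parp14, Dtx3l and Parp9, neighbours on chromosome 16, include the ADP-ribosyltransferase and ubiquitin ligase that work as a complex on interferon-induced genes. Parp9 was called higher after ovalbumin in C57BL/6. It read 8.16, 8.15 and 8.22 after PBS, 8.34, 8.48 and 8.63 after ovalbumin, and 8.50, 8.50 and 8.44 after resiquimod, with the PBS arrays below all others. The step of 0.31 ± 0.07 had an adjusted p of 0.0454 and was lost on leaving out any of 17 of the 18 arrays (all but C57BL/6 ovalbumin 1), with adjusted p between 0.0503 and 0.182. Parp14 (0.26) and Dtx3l (0.10) were not called. Resiquimod steps of all 3 lay between -0.04 and 0.12 in the 2 strains, none of them called.

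The sharpest contrast within the set was among the enzymes of nucleotide and RNA metabolism. Rsad2 (viperin), a radical-SAM enzyme that makes a chain-terminating nucleotide, fell after resiquimod in both strains, while Samhd1, which breaks down deoxynucleotides, rose in both. Rsad2 read 8.51, 8.30 and 8.03 after PBS, 7.84, 7.98 and 7.73 after ovalbumin, and 6.34, 6.22 and 6.02 after resiquimod in A/J. In C57BL/6 it read 7.79, 8.30 and 7.80 after PBS, 8.15, 7.61 and 8.39 after ovalbumin, and 7.10, 7.29 and 7.49 after resiquimod. In both strains the 3 resiquimod arrays were the lowest of the 9. The fall was -1.66 ± 0.18 in A/J (3.16-fold, adjusted p = 2.31e-05) and -0.76 ± 0.18 in C57BL/6 (1.69-fold, adjusted p = 0.0153). The difference between the 2 falls, -0.90 ± 0.26, was not called (adjusted p = 0.118). In A/J the fall was called under every alternative tried. In C57BL/6 it was lost without ovalbumin replicate 1 (adjusted p = 0.0578), ovalbumin replicate 3 (0.0791) or resiquimod replicate 1 (0.0751). It was also lost with the compared arrays alone (-0.76, adjusted p = 0.0611), with the mean of the gene's probe sets (-0.54, 0.0775) and without the arrays with squamous transcripts (-0.71, 0.18). The gene has 2 dimmer probe sets, which gave -0.65 and -1.13 in A/J and -0.42 and -0.44 in C57BL/6, of which the A/J value of -1.13 was called.

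Cmpk2, a mitochondrial nucleotide kinase, is the next protein-coding gene to Rsad2 on chromosome 12 and was not called beside it. It read 6.33, 6.48 and 6.67 after PBS, 6.20, 6.36 and 6.39 after ovalbumin, and 6.15, 6.08 and 6.12 after resiquimod in A/J. In C57BL/6 it read 6.54, 6.75 and 6.61 after PBS, and the 6 arrays after ovalbumin and resiquimod ran from 6.80 to 7.01. The A/J resiquimod arrays were the lowest of that strain, and the C57BL/6 resiquimod arrays lay above the PBS arrays and overlapped the ovalbumin arrays. Resiquimod against ovalbumin gave -0.20 ± 0.09 in A/J and 0.06 ± 0.09 in C57BL/6, neither called. Against PBS, Cmpk2 was called lower in A/J (-0.37 ± 0.09, adjusted p = 0.0161) and higher in C57BL/6 (0.30 ± 0.09, adjusted p = 0.0365), whereas Rsad2 was lower in both (-2.09 and -0.67). The A/J call of Cmpk2 was lost without PBS replicate 3 (adjusted p = 0.0989) or resiquimod replicate 2 (0.0576). The C57BL/6 call of Cmpk2 was lost without PBS replicate 1 (0.142) or 3 ( 0.1) or resiquimod replicate 1 (0.105) or 3 (0.132), and that of Rsad2 against PBS without PBS replicate 2 (0.114) or resiquimod replicate 1 (0.0974) or 2 (0.0578).

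Samhd1 moved the opposite way to Rsad2. Its values were 8.91, 8.98 and 8.89 after PBS, 8.96, 8.94 and 8.98 after ovalbumin, and 9.40, 9.58 and 9.30 after resiquimod in A/J. The C57BL/6 values were 8.59, 8.43 and 8.64 after PBS, 8.75, 8.70 and 8.74 after ovalbumin, and 9.34, 9.30 and 9.36 after resiquimod. PBS and ovalbumin arrays overlapped in A/J, and in both strains the resiquimod arrays lay above the rest. It rose by 0.47 ± 0.07 in A/J (1.38-fold, adjusted p = 0.000551) and by 0.60 ± 0.07 in C57BL/6 (1.52-fold, adjusted p = 4.65e-05). Without the arrays with squamous transcripts the rises were 0.50 (adjusted p = 0.13, not called) and 0.63 (0.0204). Isg20, an exonuclease that degrades RNA, lay between 8.93 and 9.35 in all arrays and was not called.

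Of the genes acting at the membrane or outside the cell, Bst2 and Lgals3bp were called. BST2 (tetherin) holds budding virus on the cell surface and is also a surface marker of plasmacytoid dendritic cells, and the glycoprotein encoded by Lgals3bp binds galectins. Bst2 in C57BL/6 read 8.05, 8.23 and 8.01 after PBS, 8.13, 8.10 and 8.15 after ovalbumin, and 8.54, 8.49 and 8.71 after resiquimod, with resiquimod above all else. In A/J it read 8.26, 8.14 and 8.21 after PBS, 8.14, 8.20 and 8.04 after ovalbumin, and 8.36, 8.33 and 8.13 after resiquimod and overlapped throughout. The resiquimod step was 0.46 ± 0.08 in C57BL/6 (adjusted p = 0.00188) and 0.15 ± 0.08 in A/J (0.352), and their difference, -0.31 ± 0.12, was not called (0.249). Lgals3bp read 8.45, 8.64 and 8.66 after PBS, 9.01, 8.82 and 8.88 after ovalbumin, and 9.43, 9.16 and 9.27 after resiquimod in A/J. Its C57BL/6 values were 8.63, 8.88 and 8.74 after PBS, 9.18, 8.92 and 9.13 after ovalbumin, and 9.79, 9.59 and 9.77 after resiquimod. In both strains ovalbumin stood above PBS and resiquimod above ovalbumin with no overlap. The resiquimod steps were 0.38 ± 0.10 (adjusted p = 0.0249) and 0.64 ± 0.10 (0.000469), A/J first, and the ovalbumin steps of 0.32 and 0.33 were not called. The A/J call was lost without ovalbumin replicate 2 (adjusted p = 0.0898) or 3 (0.0758) or resiquimod replicate 1 ( 0.1) or 3 (0.0579), while the C57BL/6 calls of Bst2 and Lgals3bp were kept under every alternative. Ifi27l2a gave 0.54 ± 0.20 and 0.39 ± 0.20 and was not called.

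The last role group holds induced genes with less defined functions, and it contained the largest rise. Epsti1, named for its induction by epithelial-stromal contact and active in macrophages, rose after resiquimod in both strains. In A/J it read 5.30, 5.59 and 5.34 after PBS, 5.55, 5.39 and 5.77 after ovalbumin, and 6.38, 6.40 and 6.07 after resiquimod. The C57BL/6 arrays read 6.05, 5.97 and 6.19 after PBS, 6.55, 6.52 and 6.54 after ovalbumin, and 8.02, 7.89 and 7.95 after resiquimod. In each strain the resiquimod arrays were above all others, and the lowest C57BL/6 array (5.97) lay above every A/J PBS and ovalbumin array. The rise over ovalbumin was 0.71 ± 0.11 in A/J (1.63-fold, adjusted p = 0.000528) and 1.42 ± 0.11 in C57BL/6 (2.67-fold, adjusted p = 4.62e-07). It was the only member for which the difference between the strains' rises was called (-0.71 ± 0.15, adjusted p = 0.0399). With 1 array left out at a time, 11 of 18 fits no longer called this difference (adjusted p 0.0537 to 0.0985). The arrays were A/J PBS 3, ovalbumin 1 and 3 and resiquimod 3, and C57BL/6 PBS 1, ovalbumin 1, 2 and 3 and resiquimod 1, 2 and 3. Without the arrays with squamous transcripts the difference was -0.61 and not called (adjusted p = 0.439). Of its 3 other probe sets, the brightest gave a difference of -1.03 (adjusted p = 0.00558), and the 2 weak ones were not called. After ovalbumin Epsti1 rose in C57BL/6 (0.47 ± 0.11, adjusted p = 0.048). This was lost in 13 of the 18 fits (adjusted p 0.0524 to 0.181), those without A/J PBS 1 or 3, ovalbumin 1 or resiquimod 1, or without any of the 9 C57BL/6 arrays.

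**Figure D2:**
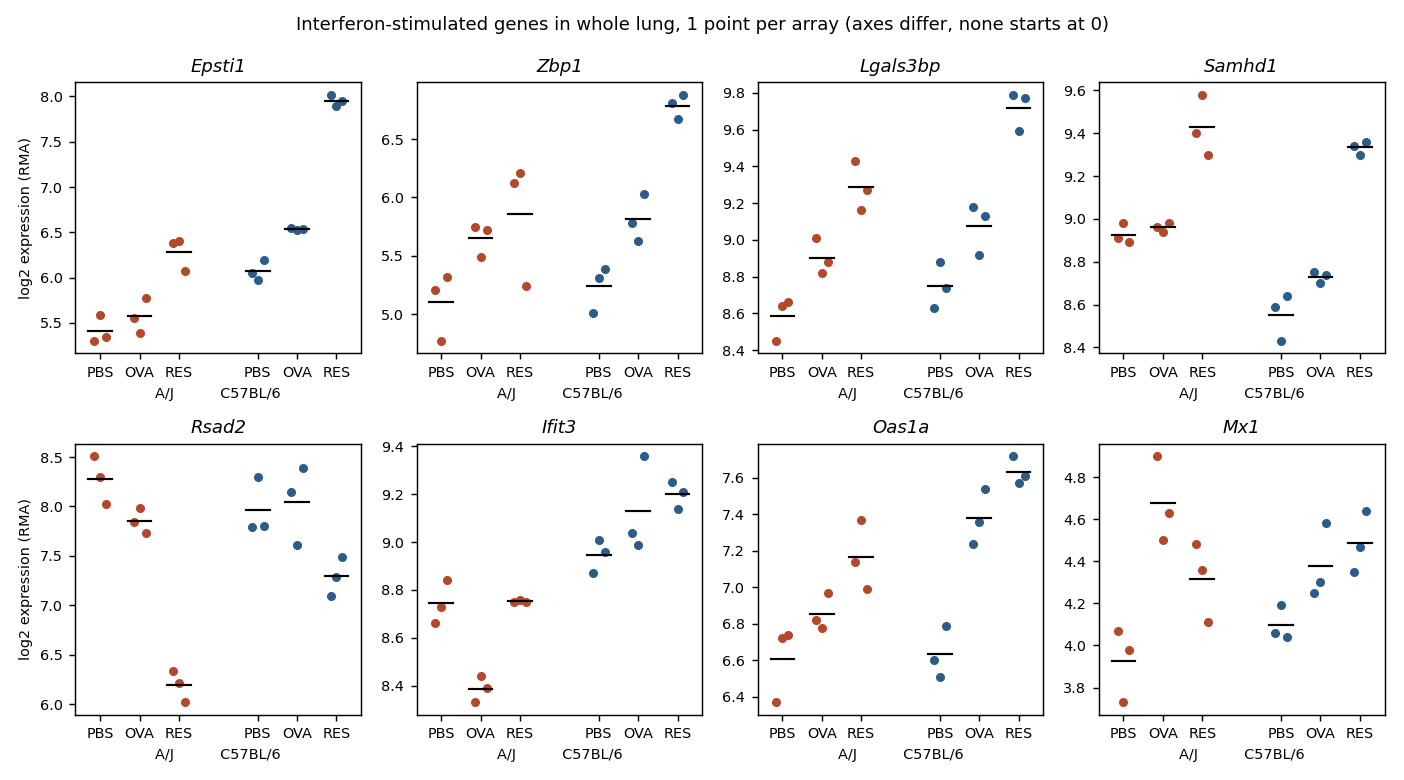
Log2 value of 8 members in each of the 18 arrays (1 point an array, line at the mean of 3), by treatment (PBS; OVA, ovalbumin; RES, resiquimod with ovalbumin) and strain (A/J red, C57BL/6 blue). Epsti1 climbs in both strains and higher in C57BL/6 (7.89 to 8.02) than in A/J (6.07 to 6.40), Rsad2 drops in both, and Ifit3 dips after ovalbumin in A/J (8.33 to 8.44).

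Trim30a, a member of a family of close copies that damps Toll-like receptor signalling, was called higher after resiquimod in A/J. It read 8.52, 8.58 and 8.59 after PBS, 8.37, 8.63 and 8.51 after ovalbumin, and 8.79, 9.03 and 8.69 after resiquimod there. The C57BL/6 arrays, at 9.08, 8.97 and 9.02 after PBS, 9.36, 9.29 and 9.53 after ovalbumin, and 9.67, 9.62 and 9.61 after resiquimod, all lay above the A/J arrays of the same treatment. The A/J rise was 0.33 ± 0.09 (adjusted p = 0.0314), lost without ovalbumin replicate 1 (0.141) or 3 (0.0748) or resiquimod replicate 2 (0.154), and the C57BL/6 step of 0.24 ± 0.09 was not called (0.122). The array cannot fully separate Trim30a from its copies, nor Ifit3 from Ifit3b or Oas1a from Oas1g. Rtp4, which encodes a receptor transport protein, gave 0.38 ± 0.09 after ovalbumin in C57BL/6 (adjusted p = 0.0526) and resiquimod steps below 0 in both strains (-0.19 and -0.21), none called. The pro-apoptotic Xaf1 and the leucine-zipper gene Ifi35 were not called in the 4 comparisons.

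Resiquimod with ovalbumin was also set against PBS, where the ovalbumin and resiquimod steps add up. Whether the strains differ in this sum was not tested, and in C57BL/6 it carries the substrain limit given above. In C57BL/6, 16 of the 37 members were higher and 1 lower, where 9.61% and 7.16% of all genes were called (16.8% in all). In A/J, 6 were higher and 2 lower, where 5.86% and 5.27% were called (11.1% in all). The groups did not overlap for 29 members in C57BL/6 and 12 in A/J (36.5% and 29.8% of all genes). In C57BL/6 the rises ran from 0.30 (Cmpk2) to 1.89 (Epsti1), with 1.55 for Zbp1, 1.00 for Oas1a, 0.97 for Lgals3bp and 0.78 for Samhd1. The others were Igtp, Ifi47, Ifi27l2a, Trim30a, Irgm1, Bst2, Usp18, Xaf1, Parp14 and Parp9. In A/J the 6 were Epsti1 (0.87), Zbp1 (0.76), Lgals3bp (0.70), Oas1a (0.56), Samhd1 (0.50) and Trim25 (0.26). Leaving out C57BL/6 resiquimod replicate 1 reduced the C57BL/6 count from 17 to 10 called, and without the arrays with squamous transcripts 4 were called in either strain. Ifi27l2a in C57BL/6 was lost in 11 of 18 fits (adjusted p 0.053 to 0.199), those without A/J PBS 1, ovalbumin 2 or 3 or resiquimod 2, or C57BL/6 PBS 1, 2 or 3, ovalbumin 3 or resiquimod 1, 2 or 3. Usp18 was lost without C57BL/6 PBS 3 (0.051) or resiquimod 1 (0.0569), Parp14 without PBS 2 (0.155) or resiquimod 1 (0.0709) or 3 (0.128), and Xaf1 without PBS 1 (0.08) or resiquimod 1 (0.0545) or 3 (0.0614). In A/J, Zbp1 was lost without PBS 1 (0.0543) or 2 (0.143) or resiquimod 1 (0.124) or 2 (0.141), and Trim25 without PBS 1 (0.0924) or 3 (0.0741) or resiquimod 2 (0.0821) or 3 (0.0797). These comparisons share their PBS and resiquimod arrays with the ones above, and 17 of the 37 members were called in none of the 6 comparisons within a strain.

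The changes of the 2 strains were also set side by side. Over the 37 genes the ovalbumin changes of the 2 strains had a Pearson r of 0.43 and a Spearman rho of 0.36, and 19 had the same sign, against an r of 0.49 and 63% of the same sign over all 18193 genes. For resiquimod against ovalbumin r was 0.72 and rho 0.66, with 27 of the same sign (r of 0.62 and 61.2% over all genes). These are descriptions across genes, which are not independent replicates.

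**Figure D3:**
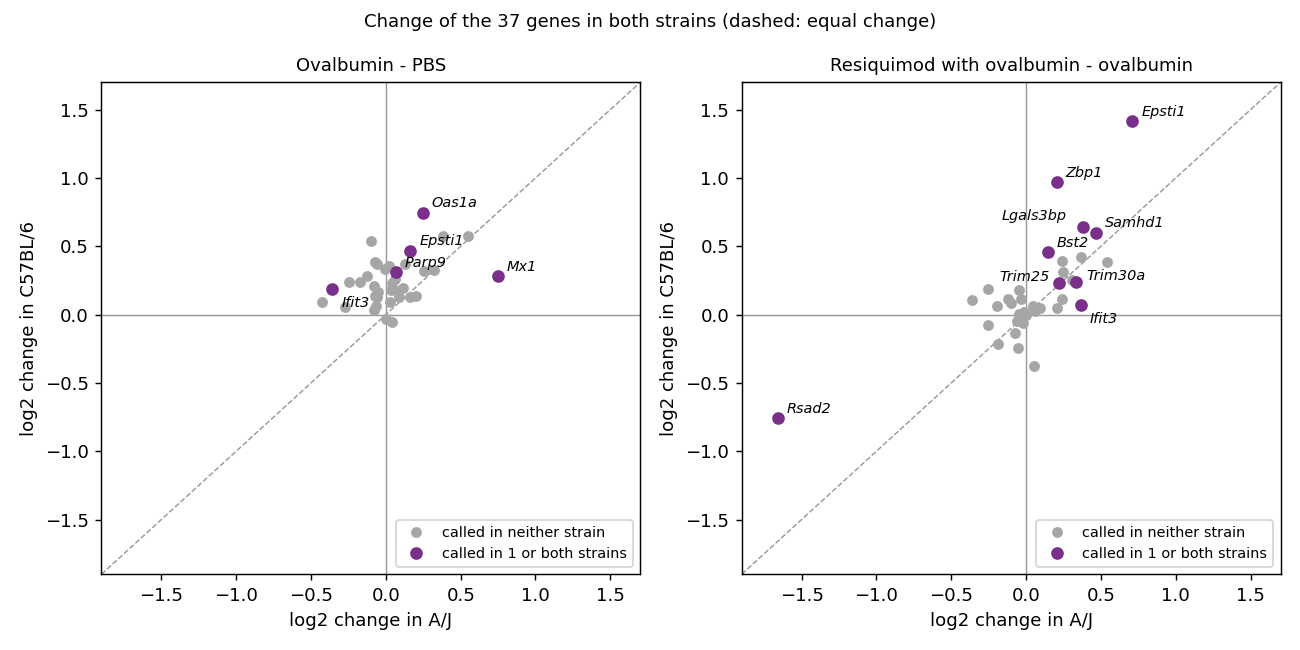
Log2 change of each of the 37 members in A/J (x) against C57BL/6 (y), after ovalbumin against PBS (left) and after resiquimod against ovalbumin (right). After ovalbumin 35 points lie above 0 in C57BL/6 while 16 lie below 0 in A/J; after resiquimod Rsad2 lies far to the lower left (-1.66, -0.76) and Epsti1 to the upper right (0.71, 1.42).

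The plainest difference between the strains was in level. After ovalbumin and after resiquimod, most of the 37 genes had a lower mean array signal in A/J. The median differences were -0.17 and -0.30, against -0.01 after PBS. The PBS comparison carries the substrain limit, so a gap that came with the challenge was not shown. Whether the probes bind the transcripts of both strains equally was not tested. After ovalbumin 0 members were higher and 10 lower in A/J than in C57BL/6. Of all genes, 4.29% and 4.98% were called there (9.27% in all). After resiquimod 0 were higher and 14 lower (7.54% and 8.92%, 16.5% in all). Of the members at an unadjusted p under 0.05, 2 were higher and 15 lower after ovalbumin, and 0 higher and 20 lower after resiquimod. All genes were not counted at that threshold, so these numbers have no background share beside them. After PBS 1 was higher and 4 lower (4.46% and 4.56%, 9.01% in all), and in that comparison substrain and strain cannot be told apart. The groups did not overlap for 13, 15 and 22 members after PBS, ovalbumin and resiquimod (27.1%, 24.6% and 32.5% of all genes). The 9 genes lower in A/J after both challenges were Ifit3, Usp18, Oas1a, Oasl2, Trim30a, Epsti1, Cmpk2, Rtp4 and Ifi27l2a, which is 9 of 10 and 9 of 14. Of these, Usp18, Oasl2, Trim30a and Epsti1 were also lower after PBS. Without the arrays with squamous transcripts 0 members were called after PBS and 4 after ovalbumin.

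**Figure D4:**
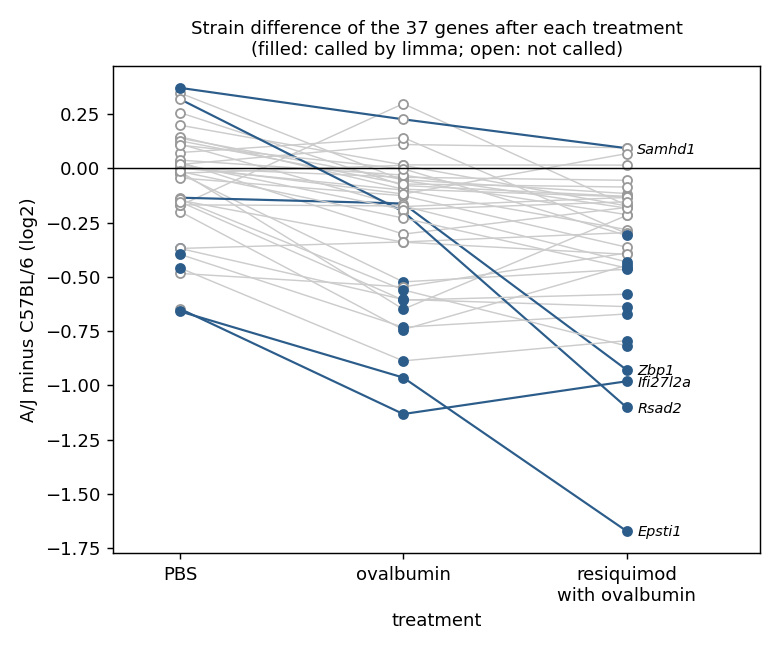
A/J minus C57BL/6 in log2 units for each of the 37 members after PBS, ovalbumin and resiquimod with ovalbumin, 1 point a gene, filled where called, with lines joining the points of a gene. After PBS the points straddle 0 (18 above it), after ovalbumin 6 and after resiquimod 4 lie above 0, with Epsti1 lowest after resiquimod (-1.67).

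The sizes ranged widely. Ifi27l2a, an interferon-induced gene, read 8.76, 8.67 and 9.32 after PBS, 9.00, 8.50 and 8.52 after ovalbumin, and 9.46, 9.22 and 8.95 after resiquimod in A/J. Its C57BL/6 values were 9.38, 9.62 and 9.69 after PBS, 10.11, 9.50 and 9.81 after ovalbumin, and 10.09, 10.49 and 9.99 after resiquimod. The strains did not overlap after any treatment. The difference was -0.65 ± 0.20 after PBS (adjusted p = 0.0554, not called), -1.13 ± 0.20 after ovalbumin (0.00106) and -0.98 ± 0.20 after resiquimod (0.00248). Epsti1 stood at -0.66, -0.96 and -1.67 in the same order, and Trim30a at -0.46, -0.89 and -0.79, each called. Usp18 ran from 6.54 to 6.91 over the 9 A/J arrays and from 6.98 to 7.55 over the 9 C57BL/6 arrays, with every C57BL/6 array above every A/J array. Its differences were -0.37, -0.60 and -0.64, of which that after PBS was lost without A/J PBS 1 (adjusted p = 0.113) or 3 (0.0647) or C57BL/6 PBS 1 (0.0769), 2 (0.0741) or 3 (0.0662). Oasl2, an OAS relative with ubiquitin-like domains, ran from 6.69 to 7.07 in A/J and from 7.18 to 7.86 in C57BL/6, again with no overlap. Its difference was -0.40 after PBS, lost in 9 of the 18 fits (adjusted p 0.0501 to 0.201; A/J PBS 1 and 2 and resiquimod 1, and C57BL/6 PBS 1 and 3, ovalbumin 1 and resiquimod 1, 2 and 3), then -0.73 and -0.67.

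After resiquimod the genes called lower in A/J also included Rsad2, Zbp1, Bst2, Lgals3bp (-0.43 ± 0.10, adjusted p = 0.00572) and Xaf1 (-0.46 ± 0.09, 0.00153). For Rsad2 the strain difference was -1.10 ± 0.18 (adjusted p = 0.000433) against 0.32 ± 0.18 and -0.20 ± 0.18 after PBS and ovalbumin, and for Zbp1 -0.93 ± 0.20 (adjusted p = 0.00464) against -0.14 ± 0.20 and -0.16 ± 0.20. The strain difference in the resiquimod effect itself was not called for Rsad2 (adjusted p = 0.118) or Zbp1 (0.252). Oas1a (-0.47) was lost without A/J resiquimod 3 (adjusted p = 0.0708) or C57BL/6 resiquimod 1 (0.054), and Bst2 (-0.31) without A/J resiquimod 3 (0.0941) or C57BL/6 resiquimod 3 (0.0912). Samhd1 alone was called higher in A/J, after PBS (0.37 ± 0.07, adjusted p = 0.00233), with 0.23 after ovalbumin and 0.09 after resiquimod. The members next above 0 after PBS were Ifi47 (0.35 ± 0.15), Rsad2 and Igtp (0.26 ± 0.20), none called. Ifi47 read 9.63, 9.17 and 9.37 in A/J and 8.81, 9.31 and 9.01 in C57BL/6 after PBS, and Igtp 8.43, 7.87 and 8.34 and 7.72, 8.41 and 7.73, so the strains overlapped for both. Oas2 was -0.48 ± 0.18 after PBS (adjusted p = 0.121), at 4.72, 5.09 and 5.36 in A/J and 5.47, 5.55 and 5.60 in C57BL/6 without overlap, and was not called.

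A test of the difference between the strains' responses called few members. For ovalbumin 0 of 37 were called, where 0.0605% of all genes were (0.044% higher and 0.0165% lower). At an unadjusted p under 0.05, a threshold not counted over all genes, 1 was higher and 9 lower in A/J. For resiquimod only Epsti1 was called, where 1.24% of all genes were (0.879% lower), and 1 was higher and 6 lower at the unadjusted threshold. So the larger number called in C57BL/6 for a given treatment is not by itself a shown difference between strains.

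The genes upstream of this set moved in their own way. Of 10 interferon genes measured, 0 were called in the 4 comparisons. Ifnb1, the first interferon made by most infected cells, lay between 3.25 and 3.79 in all arrays, near background. Ifng, the interferon of NK and T cells, read 2.98, 2.67 and 2.94 after PBS, 2.94, 2.89 and 3.05 after ovalbumin, and 3.76, 3.26 and 4.62 after resiquimod in C57BL/6 and 2.74, 2.86 and 3.02 after PBS, 2.92, 2.88 and 3.12 after ovalbumin, and 3.14, 4.18 and 3.08 after resiquimod in A/J. The C57BL/6 resiquimod arrays lay above all others of the strain, and in A/J 1 resiquimod array (4.18) stood apart. The steps of 0.50 ± 0.28 in A/J and 0.92 ± 0.28 in C57BL/6 were not called (adjusted p = 0.36 and 0.054). Tlr7, the receptor for resiquimod, rose in both strains. It read 4.95, 4.91 and 5.01 after PBS, 5.03, 5.07 and 4.95 after ovalbumin, and 5.76, 5.72 and 5.59 after resiquimod in A/J. In C57BL/6 it read 4.90, 4.73 and 4.86 after PBS, 5.18, 4.95 and 4.96 after ovalbumin, and 6.12, 6.36 and 5.85 after resiquimod. Resiquimod arrays were above all others in each strain, by 0.67 ± 0.10 (adjusted p = 0.000592) and 1.08 ± 0.10 (5.72e-06) over ovalbumin. Irf7, the factor that amplifies interferon production, read 5.88, 5.99 and 6.31 after PBS, 6.28, 5.94 and 5.90 after ovalbumin, and 7.27, 7.27 and 7.16 after resiquimod in A/J and 6.32, 6.28 and 6.35 after PBS, 6.67, 6.63 and 6.90 after ovalbumin, and 7.94, 7.68 and 7.87 after resiquimod in C57BL/6. It rose by 1.19 ± 0.12 (adjusted p = 7.7e-06) and 1.10 ± 0.12 (1.69e-05), with no overlap with the other groups. In all, 2 of the 15 genes of the TLR7 and RNA sensing list rose in A/J and 4 in C57BL/6 (4.38% and 5.8% of all genes), 0 fell, and 0 were called after ovalbumin. Without the arrays with squamous transcripts the Tlr7 step in A/J was 0.59 and not called (adjusted p = 0.0976). The further 2 in C57BL/6 were Irf5 (0.58) and the TLR chaperone Unc93b1 (0.47). Irf5 was lost without C57BL/6 ovalbumin 1 (adjusted p = 0.133) or 3 (0.0814) or any of the 3 resiquimod arrays (0.106, 0.085 and 0.0691).

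Among 6 receptor chains, Ifngr1 rose after resiquimod in both strains (0.35 ± 0.06 in A/J and 0.35 ± 0.06 in C57BL/6). Ifnar2, a chain of the type I receptor, rose in C57BL/6 (0.31 ± 0.08, lost without ovalbumin 2, adjusted p = 0.0863, or resiquimod 3, 0.0829). Ifnlr1, the interferon lambda chain, rose in A/J (0.35 ± 0.07), and Ifnar1 was not called in the 4 comparisons. Ifngr2 rose after ovalbumin in A/J (0.45 ± 0.11), a call lost without PBS 2 (0.155) or 3 (0.0775) or ovalbumin 1 (0.0551) or 3 (0.158). When the arrays with squamous transcripts were left out, the changes after resiquimod were 0.28 (adjusted p = 0.282) and 0.32 (0.0894) for Ifngr1, 0.36 (0.121) for Ifnar2 and 0.33 (0.226) for Ifnlr1, and none was called. Of 10 signalling genes, Socs1, an inhibitor of JAK kinases, went the opposite way to Tlr7. It read 3.84, 4.04 and 4.09 after PBS, 4.80, 4.92 and 4.63 after ovalbumin, and 3.99, 4.25 and 3.98 after resiquimod in A/J and 4.04, 3.86 and 3.97 after PBS, 4.53, 4.93 and 4.61 after ovalbumin, and 4.28, 4.02 and 4.31 after resiquimod in C57BL/6. Ovalbumin arrays were the highest of each strain. It rose by 0.79 ± 0.12 and 0.73 ± 0.12 after ovalbumin and fell after resiquimod (-0.71 ± 0.12 and -0.48 ± 0.12, A/J first), the C57BL/6 fall being lost without ovalbumin 2 (0.0869) or resiquimod 2 (0.0821). Both steps rest on the same ovalbumin arrays. With the 10 arrays that lack squamous transcripts the Socs1 changes were 0.86 and 0.91 after ovalbumin and -0.81 and -0.47 after resiquimod, A/J first. None was called, and in that fit the A/J ovalbumin and C57BL/6 PBS groups hold 1 array each. Socs3 rose after ovalbumin in A/J (0.91 ± 0.21), lost without any 1 of the 6 arrays compared (adjusted p 0.0515 to 0.086). Jak2 fell after resiquimod in C57BL/6 (-0.27 ± 0.08), lost in 15 of 18 fits (0.0512 to 0.195), all but those without A/J ovalbumin 2 or 3 or C57BL/6 ovalbumin 1. Irf9 was not called in the 4 comparisons.

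**Figure D5:**
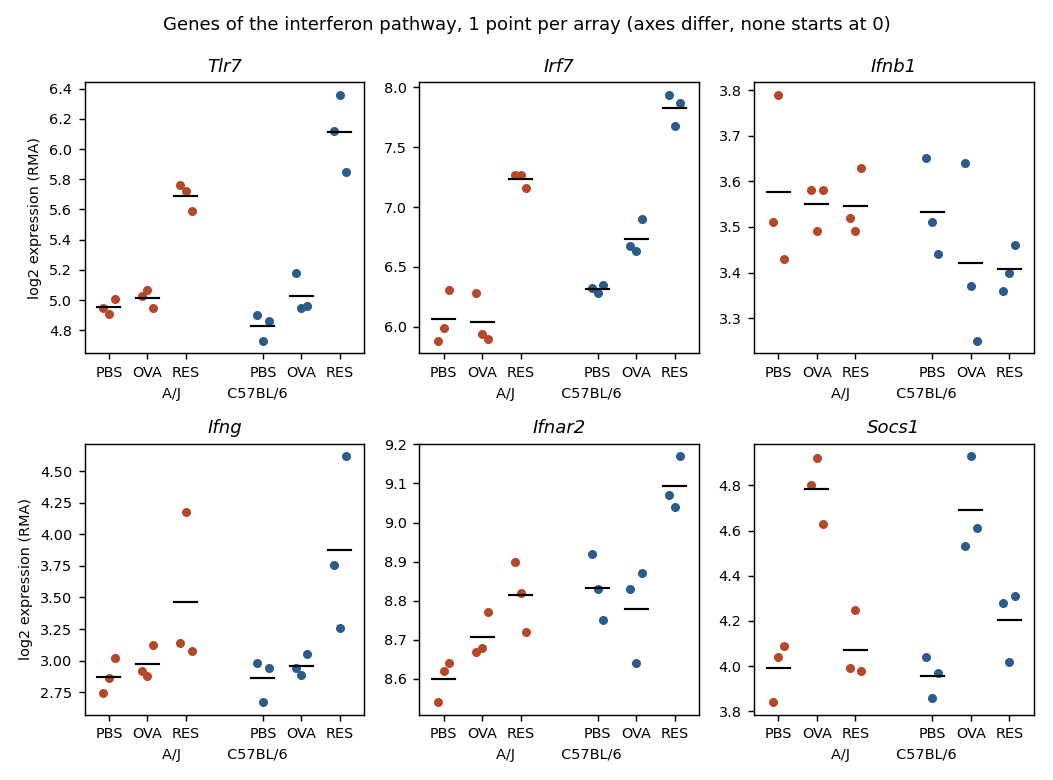
Log2 value in each of the 18 arrays (1 point an array, line at the mean of 3) of 6 genes ahead of the antiviral set, by treatment and strain (A/J red, C57BL/6 blue). Tlr7 and Irf7 stand apart after resiquimod in both strains, Socs1 is highest after ovalbumin, and Ifnb1 stays between 3.25 and 3.79.

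A second list of 40 interferon-stimulated genes was counted in the same way. After ovalbumin 3 rose in A/J and 2 in C57BL/6, and 0 fell, where 3.2% and 1.44% of all genes rose. The chemokine gene Cxcl9, which draws T and NK cells, rose by 3.10 ± 0.17 in A/J and 2.35 ± 0.17 in C57BL/6. After resiquimod 6 rose and 1 fell in A/J, where 4.38% of all genes rose and 5.39% fell, and 12 rose and 0 fell in C57BL/6 (5.8% and 4.6%). In C57BL/6 the largest were Cxcl9 (1.52 ± 0.17), the peptide transporter Tap1 (1.10 ± 0.18), the MHC class I activator Nlrc5 (0.66 ± 0.20) and the nuclear body gene Pml (0.60 ± 0.10). Nlrc5 was lost in 14 of 18 fits (adjusted p 0.0521 to 0.163), all but those without A/J PBS 2 or resiquimod 2 or 3 or C57BL/6 PBS 2. In A/J the largest were Slfn4 (1.35 ± 0.32), Slfn1 (1.19 ± 0.25), Cxcl10 (-1.17 ± 0.27) and Ifi204 (0.75 ± 0.13). Slfn4 was lost without ovalbumin 2 (0.0614) or 3 (0.0535) or resiquimod 2 (0.0573), and Cxcl10 without ovalbumin 2 (0.0567) or resiquimod 3 (0.0689). A/J was lower than C57BL/6 for 14 of the 40 and higher for 4 after ovalbumin, and lower for 19 and higher for 3 after resiquimod, against 4.98% and 4.29%, and then 8.92% and 7.54%, of all genes. The count after PBS is not given here, but some of the 40 stood apart there too. PBS means in A/J and C57BL/6 were 4.08 and 7.95 for Trim34a, 11.05 and 11.88 for Ly6e and 6.93 and 7.61 for Slfn5. A/J was the higher after PBS for Ifi204 (6.21 and 3.73), Tor3a (7.94 and 7.05) and Ifi44l (3.89 and 2.94). On leaving out the arrays with squamous transcripts, Cxcl10, Slfn1, Slfn4 and Ifi204 in A/J (adjusted p 0.137, 0.239, 0.139 and 0.142) and Tap1 and Nlrc5 in C57BL/6 (0.0872 and 0.351) were no longer called after resiquimod, with changes of -1.51, 1.37, 1.85, 0.59, 1.03 and 0.56.

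Markers of other cells moved with resiquimod, and their part in the results was not tested. Of 11 NK and cytotoxic T cell genes, 9 rose in A/J and 10 in C57BL/6 over ovalbumin, where 4.38% and 5.8% of all genes rose. Their summed level (log2) went from 8.34 to 8.59 up to 11.32 to 11.72 in A/J, and from 9.12 to 9.35 up to 12.70 to 12.93 in C57BL/6. The granule protease gene Gzmb rose by 3.52 ± 0.18 and 4.31 ± 0.18. Monocyte and interstitial macrophage genes rose for 7 and 9 of 10, with summed levels of 12.09 to 12.25 against 12.37 to 12.69 in A/J and 12.13 to 12.16 against 12.71 to 12.76 in C57BL/6. Neutrophil genes rose for 5 and 7 of 9 (10.06 to 10.15 against 11.48 to 12.69 in A/J, and 10.73 to 11.37 against 12.05 to 12.38 in C57BL/6). For plasmacytoid dendritic cells 2 and 3 of 10 genes rose, and the summed levels overlapped (10.02 to 10.50 against 10.03 to 10.42 in A/J, 10.21 to 10.63 against 10.49 to 10.82 in C57BL/6). The sum adds linear signal, so Tcf4 and Cox6a2 (means of 9.23 and 8.40) weigh most in it. It therefore says little about these cells alone. The cells' defining gene Siglech had a mean of 4.35 and lay between 4.08 and 4.88 in all arrays. B cell genes rose for 0 and 4 of 5 (8.21 to 9.73 against 9.22 to 10.12 in A/J, 8.79 to 9.16 against 10.38 to 10.76 in C57BL/6). In other lists some genes fell, where 5.39% and 4.6% of all genes fell. Members that went the other way included the fibroblast genes Pdgfra (mean 10.25 to 10.54) and Dcn (9.44 to 9.90) in A/J. The eosinophil gene Siglecf went from 5.81 to 6.52 in C57BL/6, where the eosinophil sums overlapped. Lists not described here also held genes that moved, such as Cd209a (7.37 to 4.32) and Mzb1 (7.41 to 10.10) in A/J. Goblet cell genes fell for 6 of 7 in either strain (13.22 to 13.31 against 10.79 to 11.45 in A/J, 12.94 to 13.08 against 10.32 to 11.62 in C57BL/6). Fibroblast genes fell for 5 and 3 of 7 (13.22 to 13.58 against 12.47 to 12.71, 13.40 to 13.46 against 12.64 to 12.83), eosinophil genes for 5 and 2 of 6 (8.07 to 8.82 against 6.62 to 7.37, 7.49 to 7.70 against 7.19 to 7.60) and cardiac muscle genes for 3 and 6 of 8 (12.88 to 13.30 against 12.10 to 12.58, 12.52 to 13.35 against 11.60 to 12.25), A/J first. Of 3 red cell genes 2 fell in either strain (9.81 to 10.25 against 6.91 to 7.62 in A/J, 9.39 to 9.90 against 5.91 to 6.13 in C57BL/6). Between strains after resiquimod, 8 of the 11 NK and cytotoxic genes and 4 of 10 monocyte genes were lower in A/J. So were 3 of 9 neutrophil and 2 of 10 plasmacytoid genes, where 8.92% of all genes were lower. After ovalbumin 5 of the 11 NK and cytotoxic genes were lower in A/J, where 4.98% of all genes were. Genes of these lists that were higher in A/J are not given here.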

How the data were processed

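Whole-lung total RNA was hybridised to Affymetrix mouse genome arrays. The authors deposited log2 expression values per probe set; the submitters' processing notes name RMA and affy, with versions and annotation not given in the sources used here. RMA sets all arrays to 1 distribution, so a shift shared by most genes would not show. After 64 control probe sets were left out, limma 3.58.1 (R 4.3.3) fitted 6 group means to 45037 probe sets over all 18 arrays, with eBayes and Benjamini-Hochberg adjustment over all of them. Of these, 34945 were annotated to 1 gene, 932 to several and 9160 to none. Nothing in the labels beyond "biological rep." describes how the mice were housed or processed, so p-values measure the spread between these samples, and 3 arrays a group limit the precision. The members and lists were chosen with earlier results of these data known. Every member is accounted for. Values in every array are given for members called in a strain by treatment comparison, for the 6 largest rises and falls called in each of the 4 comparisons, and for the 4 largest strain differences each way after PBS; pathway genes are named where called, at most 4 a list and comparison, and always Tlr7, Irf7, Irf9, Ifnar1, Ifnb1 and Ifng, while 1 further gene of this rule is not reported here. Other genes with values in every array were chosen after their values were seen. Fits were tested on simulated data. Alternatives were a replicate block, the compared arrays alone, a filter on dim probe sets, the mean of a gene's probe sets, equal medians, repeated quantile normalization, a trended robust eBayes, array weights, and each array left out.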

Additional observations from a re-analysis of the deposited data

Results flagged for a closer look

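In 3 genes the effect of resiquimod over ovalbumin differed between the strains by the test of that difference (limma, adjusted over all probe sets). For Epsti1 the A/J effect minus the C57BL/6 effect was -0.71 ± 0.15 (adjusted p = 0.0399), with all 3 resiquimod arrays above all 3 ovalbumin arrays in both strains. For the interferon lambda receptor gene Ifnlr1 it was 0.51 ± 0.11 (adjusted p = 0.0323), from 0.35 ± 0.07 in A/J and -0.16 ± 0.07 in C57BL/6, and the 3 resiquimod arrays lay above the ovalbumin arrays in A/J and below them in C57BL/6. For the chemokine gene Cxcl9 it was -1.16 ± 0.25 (adjusted p = 0.0377), from 0.37 ± 0.17 in A/J and 1.52 ± 0.17 in C57BL/6, with overlap of the groups in A/J only. Leaving out 1 array ended the call for Epsti1 in 11 of 18 fits (adjusted p 0.0537 to 0.0985), for Ifnlr1 in 9 (0.0611 to 0.0834: A/J ovalbumin 1 and 3 and resiquimod 2 and 3, C57BL/6 ovalbumin 1, 2 and 3 and resiquimod 2 and 3) and for Cxcl9 in 10 (0.0506 to 0.101: A/J PBS 3, ovalbumin 2 and 3 and resiquimod 1, 2 and 3, C57BL/6 ovalbumin 1 and 2 and resiquimod 1 and 3). With the compared arrays alone the differences were not called for Ifnlr1 (adjusted p = 0.0612) or Cxcl9 (0.092), with the mean of its probe sets that of Cxcl9 was -0.48 (0.309), and without the arrays with squamous transcripts they were 0.45 (0.404) and -1.31 (0.219). The Epsti1 difference was not called with the replicate block, the compared arrays alone or without the arrays with squamous transcripts.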

How the results depend on the processing

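No call of a member changed direction under any alternative. Fitting the compared arrays alone called 1 member for ovalbumin in A/J (2 in the reported fit), 1 for ovalbumin in C57BL/6 (3), 4 for resiquimod against PBS in A/J (8) and 0 for the strain difference in the resiquimod effect (1). For ovalbumin in C57BL/6 equal medians gave 1, and repeated quantile normalization and the trended robust eBayes gave 5 each. The replicate block gave 1 for ovalbumin in C57BL/6 and 0 for the strain difference in the resiquimod effect. The replicate numbers did not pair the arrays: over 45 same-number pairs the deviations had r from -0.628 to 0.609 (median 0.180), and 7 of 18 arrays correlated best with their own number. Leaving out the 8 arrays with squamous transcripts, chosen after seeing the data, gave 0 and 0 for ovalbumin in A/J and C57BL/6, 1 and 4 for resiquimod against ovalbumin, 4 and 4 for resiquimod against PBS, 0 and 4 between strains after PBS and ovalbumin, and 0 for the strain difference in the resiquimod effect; that setting keeps 10 arrays. With each array left out in turn, A/J first, the counts ranged from 1 to 3 and 1 to 4 for ovalbumin, 4 to 7 and 5 to 8 for resiquimod against ovalbumin, and 6 to 10 and 10 to 18 for resiquimod against PBS. Between strains they ranged from 3 to 6, 10 to 12 and 12 to 15 after PBS, ovalbumin and resiquimod, and were 0 and 0 to 1 for the strain differences in the ovalbumin and resiquimod effects. Oas3, Oasl1, Mx1 and Mx2 had means under the median of all values, where a fold may be understated.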
